A study of Mus musculus with 18 samples.

Results

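The ephrins are the membrane-bound ligands of the Eph receptor tyrosine kinases, and 8 genes encode them in the mouse. The 8 were taken from the 55335 genes of the count tables by symbol (Efna1, Efna2, Efna3, Efna4, Efna5, Efnb1, Efnb2 and Efnb3), each symbol being present once, and the rule uses no measured value. Their levels were measured by single-nucleus RNA-seq in fixed forebrain nuclei from mice at embryonic day 14 (E14), by combinatorial barcoding. Wild type (WT), heterozygous (Het) and knockout (KO) embryos for MYT1L, a zinc finger transcription factor of neurons, were compared, with 3 animals a genotype and each animal sequenced in 2 runs, which gives 18 libraries. The question of the design is how loss of 1 or both working copies of MYT1L changes the cells of the forebrain at the peak of neurogenesis.

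Het and KO embryos carried the germline allele MYT1L S710fsX, a frameshift present in every cell, on the C57BL/6J background. All 3 genotypes came from Het by Het crosses, KO mice do not survive after birth, and the sexes were mixed. The genotype field of the labels read WT for all 9 libraries of run 1 whereas their titles gave 3 WT, 3 Het and 3 KO. In run 2 field and title matched. Groups were taken from the titles and runs of an animal were summed. From fits without a block, the fold changes printed below for single ephrin genes by class are also given from run 2 alone. By cluster this was done only for the KO change of Efna4 in the cluster where that fit called it. The other cluster fold changes, the ranges over members or clusters and the fits that leave out an animal are not given from run 2 alone. The allele is not a deletion, so the Myt1l RNA level does not check the labels. In excitatory neuron-like nuclei it was 2059 ± 159 UMIs in 1000000 UMIs of the class (CPM) for WT, 2297 ± 146 for Het and 2518 ± 165 for KO (mean ± SD, n = 3 each), with a KO against WT log2 fold change of 0.31 (SE 0.084, edgeR adjusted p = 0.102; adjusted p = 0.000185 if blocked by replicate number).

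Ephrins are known for signalling where cells touch. Ephrin-A proteins are held in the membrane by a lipid (GPI) anchor and bind mainly EphA receptors. Ephrin-B proteins span the membrane, bind mainly EphB receptors and EphA4, and carry a cytoplasmic tail that signals back into the cell that bears them. In the developing forebrain both classes are known to guide axons into topographic maps, to steer migrating neurons and to act between progenitors at the ventricular surface.

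After filtering, 194636 of 261143 barcodes were kept, 38053 from run 1 and 156583 from run 2, at a median of 2519 UMIs and 1537 genes. The animals contributed 14823 to 26098 nuclei and 42917111 to 73851494 UMIs each. Between libraries of different animals 3429 barcodes were shared, and between the 2 runs of 1 animal 311. Nuclei fell into 33 clusters, formed without the ephrin and Eph receptor genes, of which 26 were named from marker genes. There were 30068 radial glia-like nuclei, 7787 inhibitory progenitor-like, 53509 inhibitory neuron-like, 18720 excitatory intermediate progenitor-like, 47635 excitatory neuron-like and 2053 Cajal-Retzius-like nuclei, with 316 microglia or macrophage-like and 353 choroid plexus or hem-like nuclei. Cluster 32, of 733 diencephalic neuron-like nuclei, came wholly from 1 animal, Het replicate 1, and entered no comparison of classes or genotypes. The remaining 33462 nuclei were in 7 unnamed clusters. Levels are given as CPM, taken within a class and animal. They are not scaled by gene length, so values compare classes and animals for 1 gene and not 1 gene with another.

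Efna1, Efna3 and Efna4 lie in a row on the minus strand of chromosome 3 (GRCm38/mm10), Efna4 at 89333390 to 89338028, Efna3 at 89313899 to 89322965 and Efna1 at 89271733 to 89281142. The others are dispersed: Efna2 on chromosome 10 (80179482 to 80190010), Efna5 on chromosome 17 (62604184 to 62881317), Efnb1 on chromosome X (99136130 to 99148991), Efnb2 on chromosome 8 (8617434 to 8661242) and Efnb3 on chromosome 11 (69554092 to 69560205). Efna5 spans 277134 bases, the longest of the 8. Efna4, to which the genotype result below attaches, and its neighbour Efna3 are shown here by the RefSeq promoter window on the strand of the gene, 250 bases before and 50 after the annotated start. Capitals mark AAGTT or its reverse complement AACTT, the core letters bound by MYT1 family zinc fingers.

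Efna4, chr3:89337979-89338278, minus strand: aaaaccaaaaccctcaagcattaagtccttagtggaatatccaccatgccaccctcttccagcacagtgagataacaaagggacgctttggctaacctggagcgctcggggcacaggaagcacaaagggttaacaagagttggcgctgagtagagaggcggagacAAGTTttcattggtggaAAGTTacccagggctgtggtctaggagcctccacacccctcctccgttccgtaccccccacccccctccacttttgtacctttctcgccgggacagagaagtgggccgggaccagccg
Efna3, chr3:89322890-89323189, minus strand: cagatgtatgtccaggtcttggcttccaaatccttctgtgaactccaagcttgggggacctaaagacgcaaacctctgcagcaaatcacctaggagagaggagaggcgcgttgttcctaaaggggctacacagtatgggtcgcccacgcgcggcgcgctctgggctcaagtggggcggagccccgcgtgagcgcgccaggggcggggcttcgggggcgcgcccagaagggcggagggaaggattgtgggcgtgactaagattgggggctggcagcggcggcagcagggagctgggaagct

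The Efna4 window held 2 matches, at positions 166 and 183 counted from the 5′ end, and the Efna3 window none. Among the other members with an entry, the Efnb1 window held 1 match and the windows of Efna1, Efna2, Efna5 and Efnb2 none. Efnb3 was named only. Of 32851 promoter windows of 300 bases, 39.32% held at least 1 match and 11.38% at least 2, so the letters are common, and a match is a description of sequence and not of binding.

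Efna5, an axon guidance ligand known for graded expression, differed widely between classes. Among classes seen in every animal it was highest in inhibitory progenitor-like nuclei at 665 ± 77.2 CPM and inhibitory neuron-like nuclei at 527 ± 31.4 CPM (mean ± SD over 9 animals, here and for the levels that follow). Cajal-Retzius-like nuclei came next at 359 ± 44.6 CPM, before radial glia-like nuclei at 165 ± 16.8 and excitatory intermediate progenitor-like nuclei at 149.7 ± 19.6. Excitatory neuron-like nuclei were at 77.3 ± 8.85 CPM. Each of the first 3 steps in this order was seen in 9 of 9 animals (exact sign-flip permutation test, two-sided, adjusted p = 0.0115 over the 56 neighbouring pairs of the 8 genes; the smallest unadjusted p that 9 animals allow is 0.00391). Here and below this test treats the 9 animals as independent and takes no account of their replicate numbers. Radial glia-like and excitatory intermediate progenitor-like nuclei did not differ beyond their spread (adjusted p = 0.106 by the same exact test). Within the inhibitory classes Efna5 was uneven. Cluster 2, led by Nkx2-1, the patterning gene of the medial ganglionic eminence, held 1301 ± 89.4 CPM and cluster 18, the other inhibitory progenitor-like cluster, 410.3 ± 37.9, without overlap between animals. Cluster 5, led by Prdm12, held 1259 ± 109 CPM. Cluster 6, with 6 of 6 caudal ganglionic eminence markers, held 176 ± 34.9, and the inhibitory neuron-like clusters 0, 3, 8 and 24 held 261 to 297.5, less than the Cajal-Retzius-like mean. The unnamed clusters 4 and 17, both led by Otx2 among other genes, held 944 ± 58.2 and 1022 ± 64.4 CPM. By markers cluster 4 (7610 nuclei) scored highest as inhibitory progenitors and cluster 17 (5593 nuclei) as radial glia, but neither entered a class. The class order above covers named clusters only and was not tested with them included. The lowest cluster of excitatory neuron-like nuclei, cluster 15, held 39.7 ± 8.10.

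Efna2 was spread more evenly. It ranged from 33.1 ± 5.21 CPM in inhibitory progenitor-like nuclei through 25.2 ± 4.08 in inhibitory neuron-like, 24.1 ± 3.05 in excitatory intermediate progenitor-like, 20.2 ± 2.96 in excitatory neuron-like and 15.8 ± 1.31 in radial glia-like to 12.7 ± 3.81 in Cajal-Retzius-like nuclei. Excitatory intermediate progenitor-like and inhibitory neuron-like nuclei did not differ beyond their spread (exact sign-flip test, adjusted p = 0.494), nor did radial glia-like and Cajal-Retzius-like nuclei (adjusted p = 0.0648), while the other 3 steps were seen in 9 of 9 animals.

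Efna3 was highest in excitatory neuron-like and Cajal-Retzius-like nuclei. Cajal-Retzius-like nuclei held 14.7 ± 4.13 CPM and excitatory neuron-like nuclei 13.1 ± 2.71, which did not differ beyond their spread (exact sign-flip test, adjusted p = 0.353). Excitatory intermediate progenitor-like nuclei were lower, at 6.37 ± 1.62 CPM, in 9 of 9 animals (adjusted p = 0.0115, exact test). Within that class cluster 25 held 10.49 ± 3.33 CPM, and clusters 13 and 23 held 3.14 ± 0.818 and 1.47 ± 1.36. Inhibitory neuron-like nuclei held 4.72 ± 1.17 CPM, a step from the intermediate progenitor class that did not pass (adjusted p = 0.0679, exact test), and radial glia-like and inhibitory progenitor-like nuclei 1.34 ± 0.531 and 0.553 ± 0.544. By cluster the range within excitatory neuron-like nuclei was small, from 9.50 ± 2.85 CPM in cluster 26 to 15.2 ± 3.64 in cluster 19.

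Efna4 was highest in excitatory intermediate progenitor-like nuclei at 21.1 ± 2.53 CPM. Excitatory neuron-like nuclei held 15.1 ± 3.74 CPM, lower in 8 of 9 animals (exact sign-flip test, adjusted p = 0.0285). Radial glia-like nuclei held 11.98 ± 1.87 CPM, inhibitory progenitor-like nuclei 10.5 ± 1.28 and Cajal-Retzius-like nuclei 9.18 ± 4.33, and no step among these passed the test. These means pool the genotypes, whose levels in excitatory neuron-like nuclei differed. In WT that class was at 11.5 ± 1.63 CPM beside 11.65 ± 1.21 in radial glia-like and 22.2 ± 1.62 in excitatory intermediate progenitor-like nuclei, and in KO at 19.4 ± 1.34 beside 12.55 ± 2.57 and 20.6 ± 1.73 (n = 3 each). Inhibitory neuron-like nuclei were lower again, at 4.14 ± 1.03 CPM, in 8 of 9 animals (adjusted p = 0.0208, exact test).

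Efna1, known as a ligand of EphA2 in vessels and epithelia, was near the limit of detection in the neural classes. It was at 2.16 ± 0.470 CPM in radial glia-like nuclei, at 1.38 ± 0.354 in excitatory neuron-like nuclei, lower in 9 of 9 animals (exact sign-flip test, adjusted p = 0.0115), and under 1 CPM in the other 4 large classes. Its highest cluster was cluster 28, 329 unnamed nuclei led by Abcc9, Rgs5 and Flt1, genes known from vessel walls and endothelium, at 19.7 CPM pooled over animals (19 UMIs, 95% exact Poisson interval 11.9 to 30.8, which covers counting error only).

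Of the transmembrane ligands, Efnb1, an X-linked gene, had its highest class levels in progenitors. Its level stepped down from radial glia-like nuclei at 222 ± 51.5 CPM through inhibitory progenitor-like nuclei at 119 ± 18.2, excitatory intermediate progenitor-like nuclei at 108 ± 18.6 and excitatory neuron-like nuclei at 45.6 ± 5.33 to inhibitory neuron-like nuclei at 37.5 ± 2.92. All 4 steps were seen in 9 of 9 animals (exact sign-flip test, adjusted p = 0.0115 each). Cajal-Retzius-like nuclei were at 26.6 ± 7.33 CPM. The cluster with the highest level was cluster 11, radial glia-like nuclei led by mitotic genes such as Cenpa, at 241 ± 62.0 CPM. The inhibitory progenitor-like cluster 2 held only 63.9 ± 16.8 CPM. That is near the neuron-like clusters 22, at 61.9 ± 9.055, and 3, at 60.05 ± 10.86, and below the unnamed cluster 7, at 82.9 ± 16.2.

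Efnb2, which also guides vessel growth, was present throughout. Excitatory neuron-like nuclei at 189 ± 27.3 CPM and radial glia-like nuclei at 186 ± 23.98 did not differ beyond their spread (exact sign-flip test, adjusted p = 0.353). Excitatory intermediate progenitor-like nuclei at 148 ± 18.7 CPM and inhibitory progenitor-like nuclei at 124 ± 13.5 were each lower than the class before in 9 of 9 animals (adjusted p = 0.0115, exact test). Inhibitory neuron-like and Cajal-Retzius-like nuclei held 115 ± 12.9 and 109 ± 13.1 CPM and did not differ beyond their spread (adjusted p = 0.406, exact test). The class mean of excitatory neuron-like nuclei covers unlike clusters. Cluster 22, led by Adamtsl3 and Nrp1 among other genes and with 5 of 8 upper-layer or migrating neuron markers, held 334 ± 49.9 CPM. Cluster 16, with 7 of 9 deep-layer markers, Hs3st4 and Nfe2l3 among its leading genes, held 103 ± 12.2, and cluster 26, led by Sim1, 75.4 ± 12.2.

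Efnb3, a ligand known for midline guidance of axons, had its highest class levels in neurons. Inhibitory neuron-like nuclei held 96.4 ± 16 CPM, Cajal-Retzius-like nuclei 55.4 ± 8.24 and excitatory neuron-like nuclei 41.7 ± 6.58, both steps seen in 9 of 9 animals (exact sign-flip test, adjusted p = 0.0115). Progenitors were lower, at 26.3 ± 3.49 CPM in the inhibitory, 21.6 ± 2.03 in the radial glia-like and 19.8 ± 2.41 in the excitatory intermediate class. Cluster 5, the Prdm12 cluster high in Efna5, was also its highest, at 224 ± 45.2 CPM, and within the inhibitory neuron-like class cluster 24, led by Ikzf1, Rarb and Ebf1, was at 26.7 ± 4.96. The largest excitatory neuron-like cluster, cluster 22, held 25.2 ± 5.34 CPM, within the range of the progenitor clusters, and cluster 26 119 ± 24.7.

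**Figure D1:**
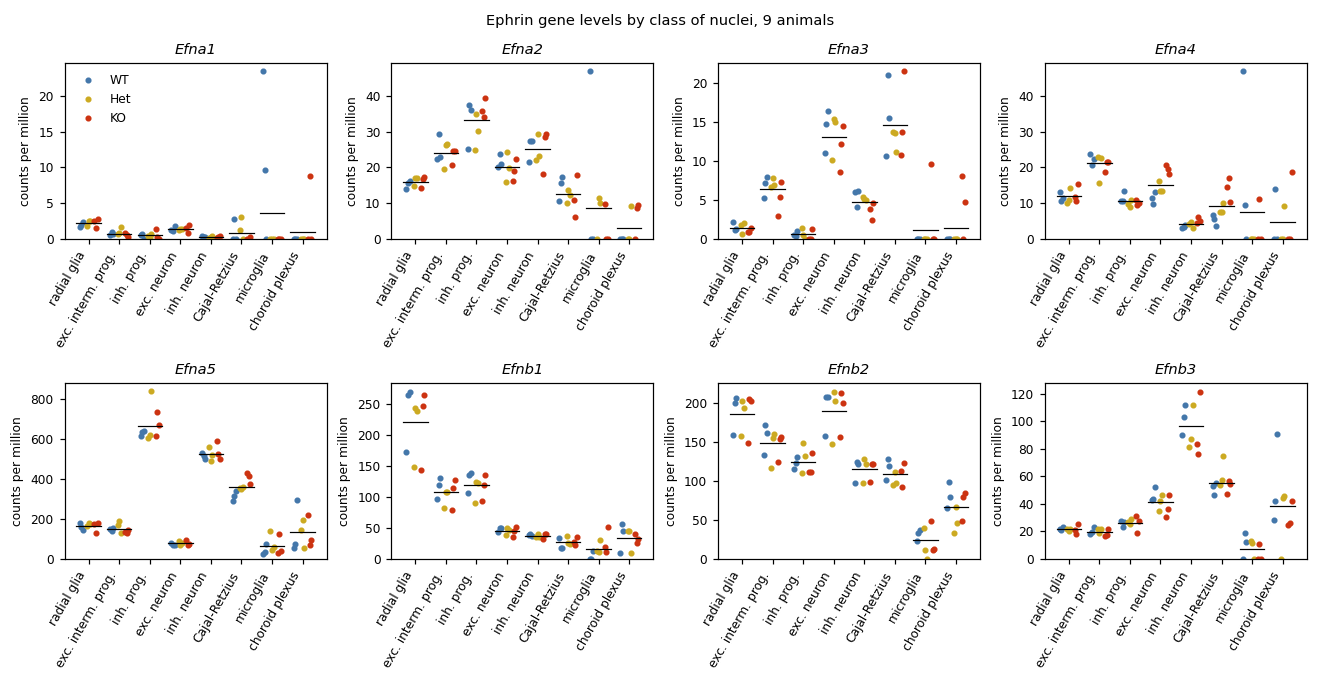
CPM of each ephrin gene in 8 classes of nuclei, 1 point an animal, coloured by genotype (WT, Het, KO; 3 animals each). Efna5 stands highest in the inhibitory classes, Efnb3 in inhibitory neuron-like nuclei, Efnb1 in radial glia-like nuclei and Efna3 in Cajal-Retzius-like and excitatory neuron-like nuclei. In the microglia-like and choroid plexus-like classes the points scatter because each rests on few UMIs.

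In microglia or macrophage-like and choroid plexus or hem-like nuclei each animal contributed 0 to 27 UMIs of any member. Efna5 was at 62.4 ± 41.8 CPM in the first and 134 ± 85.3 in the second, and Efnb2 at 24.1 ± 16.2 and 66.8 ± 20.7. Efnb1 was at 16.5 ± 16.02 and 34.3 ± 16.5 CPM and Efnb3 at 7.45 ± 7.44 and 38.2 ± 24.5. The means of Efna1 to Efna4 were 1.07 to 8.63 CPM in the first class and 0.972 to 4.66 in the second. Free RNA was not removed from these values, and Myt1l, a neuronal gene, was at 145 ± 118 CPM in the microglia-like class.

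**Figure D2:**
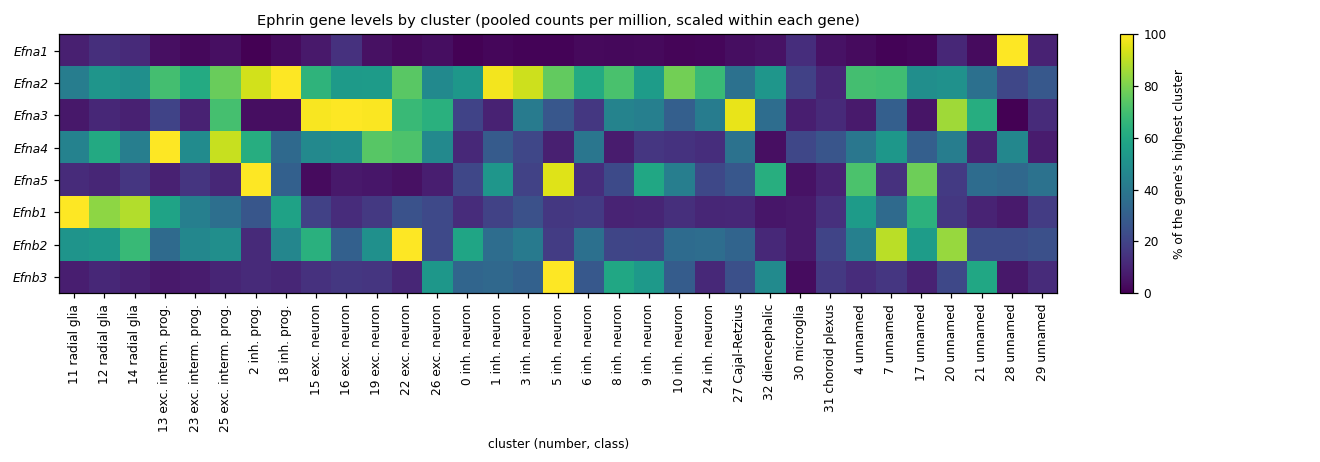
Pooled CPM of each ephrin gene in each cluster, as a percentage of that gene's highest cluster (columns, cluster number and class; rows, genes). Efna5 peaks in clusters 2 and 5, Efnb3 in cluster 5, Efnb2 in cluster 22, and Efna1 in cluster 28.

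Across 32 clusters of at least 200 nuclei, the members did not share 1 pattern. Pearson's r between members, on mean log2(CPM + 1), was highest for Efna4 with Efnb1 (0.65), Efnb1 with Efnb2 (0.61) and Efna4 with Efnb2 (0.59), and lowest for Efna1 with Efnb3 (-0.49). These are descriptions over clusters that come from the same libraries, cluster 32 of 1 animal among them, and carry no p. Among 11518 other genes, those most like each member by the same measure were Cnr1 (r = 0.94), Nfasc (0.92) and Dmxl2 (0.92) for Efna3, Cxxc4 (0.84), Sgce (0.78) and Fign (0.77) for Efna5, and Zik1 (0.95), Ncan (0.93) and Pja1 (0.93) for Efna2. For Efna4 they were Gm26801 (0.87), 2610035D17Rik (0.84) and Chchd2 (0.82), and for Efna1 Rasl12, Apln and Gprc5c (0.78 each). Efnb1 was nearest to Fzd2 (0.94), Sfr1 (0.93) and 4930453N24Rik (0.92), and Efnb3 to Tceal3 (0.94), Pnck (0.93) and Gprasp1 (0.92). The 3 models most like Efnb2, E230020D15Rik (0.96), Gm45073 (0.95) and Gm45074 (0.92), lie within Efnb2 on its own strand, so that reads of the one and the other cannot be told apart. Without cluster 32, 19 of the 24 genes were again in the top 3, the exceptions being Dmxl2, Fign, Chchd2, Gprc5c and 4930453N24Rik.

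The genotype comparison was made in each class on UMIs summed per animal with edgeR's quasi-likelihood test, and a gene was called at a Benjamini-Hochberg adjusted p under 0.05, adjusted over all genes tested in the class, together with a log2 change of more than 0.2 either way. Efna4 was the only member called without a block. Blocking by replicate number added Efnb3 in excitatory neuron-like nuclei, given below. Efna4 rose in excitatory neuron-like nuclei of KO embryos, where it was 19.4 ± 1.34 CPM against 11.5 ± 1.63 in WT, and stood between them in Het at 14.3 ± 1.63 (n = 3 each). No other of the 43 combinations of member and class tested was called for KO, 4 of the 43 having an unadjusted p under 0.05, and none for Het, with 1 of 43 under 0.05. DESeq2 gave the same counts. Of all 18376 genes tested in excitatory neuron-like nuclei, 1.19% were called for KO (136 higher, 82 lower; 1.88% by DESeq2), and 1 of the 8 members. For Het 0% of genes were called in every class.

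Efna4 in excitatory neuron-like nuclei was 11.5, 9.80 and 13.1 CPM in the WT animals, 16.2, 13.4 and 13.4 in Het and 20.7, 19.5 and 18.02 in KO, resting on 167 to 350 UMIs an animal. In the summed runs the 3 genotypes did not overlap, KO being above Het and Het above WT. In run 2 alone KO, at 18.76 to 19.7 CPM, again stood above the others, but Het at 12.24 to 15.4 overlapped WT at 9.64 to 13.01. In run 1 alone both Het and WT and Het and KO overlapped. Groups failed to overlap between KO and WT in 18.2% of all genes at 1 CPM or more, between Het and WT in 9.81% and between KO and Het in 10.6%, each time with Efna4 as 1 of the 8 members. The log2 fold change was 0.79 for KO (SE 0.117, edgeR adjusted p = 0.00737) and 0.34 for Het (SE 0.120, unadjusted p = 0.0130, edgeR adjusted p = 1.0). From run 2 alone, where field and title of the labels matched, the KO value was 0.81 (edgeR adjusted p = 0.00649) and the Het value 0.32 (edgeR adjusted p = 1.0), and from the smaller run 1 the KO value was 0.66 (edgeR adjusted p = 0.524).

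**Figure D3:**
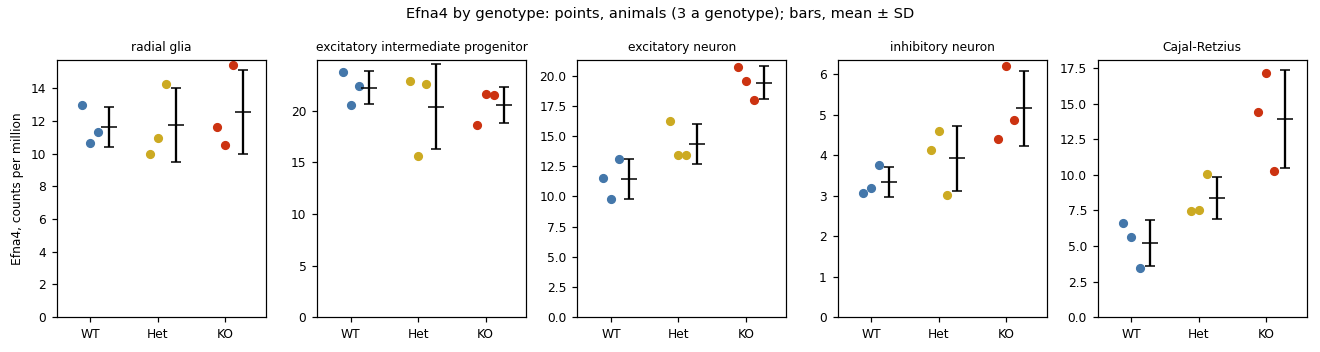
Efna4 CPM by genotype in several classes of nuclei, points being animals (3 a genotype) and bars the mean ± SD. In excitatory neuron-like nuclei the WT animals lie at 9.80 to 13.1, Het at 13.4 to 16.2 and KO at 18.02 to 20.7, while in excitatory intermediate progenitor-like nuclei the genotypes overlap.

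The other classes are given side by side. In excitatory intermediate progenitor-like nuclei, where Efna4 was highest, the WT animals held 23.8, 20.6 and 22.4 CPM and the KO animals 18.6, 21.6 and 21.6, which overlap. The runs leaned opposite ways there. In run 1 alone WT held 17.05 to 18.6 CPM and KO 21.37 to 23.75. In run 2 alone WT held 21.24 to 25.96 CPM and KO 15.95 to 21.66. Radial glia-like nuclei held 12.99, 10.6 and 11.3 CPM in WT and 11.6, 10.6 and 15.5 in KO, overlapping too. In these classes 0% of all genes were called. Inhibitory neuron-like nuclei held 3.07, 3.19 and 3.76 CPM in WT, 4.13, 4.60 and 3.02 in Het and 4.40, 6.196 and 4.88 in KO, where KO did not overlap WT, as in 11.3% of all genes there and 1 of the 7 members. The log2 fold change there was 0.68 (SE 0.198, unadjusted p = 0.00486), which did not pass adjustment (edgeR adjusted p = 0.553), in a class with 0.0424% of genes called. From run 2 alone it was 0.74 (edgeR adjusted p = 0.463). Efna4 was too low to be tested in Cajal-Retzius-like nuclei, with 2 to 12 UMIs an animal, at 6.62, 5.63 and 3.47 CPM in WT, 7.49, 7.54 and 10.04 in Het and 14.4, 17.1 and 10.3 in KO.

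Whether the KO change of Efna4 differs between classes was tested directly as an interaction. Excitatory neuron-like minus inhibitory neuron-like nuclei gave a log2 difference of 0.11 (SE 0.184, unadjusted p = 0.561, edgeR adjusted p = 0.978; 0.07 from run 2 alone, edgeR adjusted p = 0.994), so that the class with a call and the class without were not shown to differ, and none of the 8 members was called in this comparison (0 of 8 with an unadjusted p under 0.05 in edgeR or DESeq2), where 0.0355% of genes were called. Against excitatory intermediate progenitor-like nuclei the difference was 0.86 (SE 0.156, edgeR adjusted p = 0.0117, 0.558% of genes called). That call was lost without WT replicate 2 (0.81, edgeR adjusted p = 0.0892) and from run 1 alone (0.33, edgeR adjusted p = 0.915), and was kept from run 2 alone (1.04, edgeR adjusted p = 0.0122). Against radial glia-like nuclei it was 0.65 (SE 0.217, edgeR adjusted p = 0.341, 0.188% of genes called), 0.70 from run 2 alone (edgeR adjusted p = 0.249), and 0.66 once the replicate number entered as a block (edgeR adjusted p = 0.0480, 2.09% of genes called). These 2 comparisons were added after the values were seen.

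By cluster, Efna4 was called in cluster 16, the excitatory neuron-like cluster with 7 of 9 deep-layer markers. It was 9.74, 6.82 and 9.95 CPM there in WT, 12.4, 12.97 and 8.72 in Het and 16.3, 19.03 and 15.9 in KO. KO did not overlap WT, as in 18.4% of all genes at 1 CPM or more in this cluster, nor Het, as in 13.3%, whereas Het and WT overlapped. Efna5 (given further on) and Efna2 also stood apart between KO and WT there, Efna2 being lower in KO at a log2 fold change of -0.41 (SE 0.190, unadjusted p = 0.0463, edgeR adjusted p = 0.328). Over clusters the KO value of Efna2 was positive in 14 and negative in 14 of 28. That value had an unadjusted edgeR p under 0.05 in 4 clusters. It was lower in KO in clusters 8, 16 and 20 (-0.45, -0.41 and -0.40). In cluster 11 it was higher, at 0.33 (unadjusted p = 0.0323, edgeR adjusted p = 0.9998). The KO log2 fold change of Efna4 in cluster 16 was 0.99 (SE 0.186, edgeR adjusted p = 0.0105), with 2.49% of genes called in that cluster, and from run 2 alone it was 1.03 (edgeR adjusted p = 0.0247). Leaving out 1 of 2 animals ended this call, WT replicate 2 (0.83, edgeR adjusted p = 0.0587) or KO replicate 2 (0.88, edgeR adjusted p = 0.0623). Of 176 combinations of member and cluster this was the only call for KO (0.268% of genes called over all clusters). At an unadjusted p under 0.05 were 19 in edgeR and 11 in DESeq2, against 20150 of 324386 tests over all genes in edgeR. Het had no call (0.000308% of genes called), with 5 under 0.05 in edgeR and 3 in DESeq2. The KO value of Efna4 was positive in 16 of the 20 clusters where it was tested, from -0.60 to 1.18 with a median of 0.27. These clusters come from the same animals, so their signs are not independent. With the replicate number as a block, a pairing taken from these same data, edgeR called Efna4 in 5 clusters. They were the excitatory neuron-like clusters 15 (log2 fold change 0.88, edgeR adjusted p = 0.0419), 16 (1.01, adjusted p = 0.000563), 19 (0.66, adjusted p = 0.0245) and 22 (0.59, adjusted p = 0.0484) and the unnamed cluster 20 (1.18, adjusted p = 0.0195). Under the block 4.48% of genes were called in cluster 15, 7.85% in 16, 1.02% in 19, 0.834% in 22 and 2.56% in 20.

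**Figure D4:**
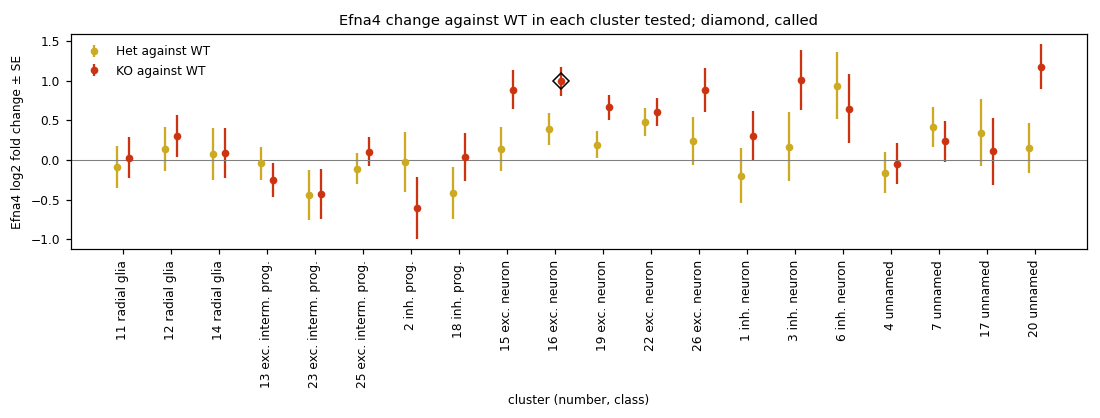
Efna4 log2 fold change ± SE against WT for Het and KO in each cluster tested (edgeR, 9 animals), diamonds marking a call. KO values are positive in 16 of 20 clusters and the 1 call is in cluster 16, at 0.99.

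Neighbours of Efna4 high enough to be tested in excitatory neuron-like nuclei, Efna3, Adam15 and the antisense model 4731419I09Rik among them, were not called for KO. Adam15 had a KO log2 fold change of -0.04 there. 4731419I09Rik overlaps Efna4 by 179 bases and had -0.12 there and 0.67 in inhibitory neuron-like nuclei (edgeR adjusted p = 0.665). No source at hand says whether the counting used strand, and without it reads in those 179 bases cannot be told apart. Efna3 likewise overlaps Gm15998 by 3469 bases.

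Of the remaining members, 2 had an unadjusted p under 0.05 for KO in a class. Efna3 in inhibitory neuron-like nuclei was 6.01, 4.09 and 6.17 CPM in WT, 5.31, 5.08 and 5.02 in Het and 3.88, 2.40 and 4.55 in KO, a log2 fold change of -0.56 (SE 0.215, unadjusted p = 0.0231, edgeR adjusted p = 0.761). KO and WT overlapped, and run 2 alone gave -0.57 (edgeR adjusted p = 0.729). Efna5 in Cajal-Retzius-like nuclei was 289, 313 and 339.5 CPM in WT, 355, 351 and 363 in Het and 429, 416 and 375 in KO, the 3 genotypes standing apart in that order in the summed runs. From run 2 alone KO at 372 to 413 CPM still stood above WT at 290.5 to 356.5, while Het at 356 to 377 overlapped both. Its KO log2 fold change was 0.38 (SE 0.109, unadjusted p = 0.00217, edgeR adjusted p = 0.164), in a class with 0.113% of genes called. Groups there failed to overlap in 11.8% of genes between KO and WT, 9.58% between Het and WT and 11.1% between KO and Het, and in each of these pairs in 2 of 7 members, Efna4 and Efna5. From run 2 alone it was 0.29 (edgeR adjusted p = 0.424).

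The replicate number, when it entered the fit as a block, added 1 call among the classes. Efnb3 in excitatory neuron-like nuclei was 42.7, 43.6 and 52.0 CPM in WT, 35.1, 42.5 and 46.1 in Het and 30.7, 36.3 and 46.5 in KO, in the order of replicates 1 to 3. WT and KO overlapped. Each KO animal was below the WT animal of its number, but that pairing was taken from these same data, and the share of all genes so ordered was not counted. The KO log2 fold change was -0.26 (edgeR adjusted p = 0.451) without the block, -0.24 from run 2 alone (edgeR adjusted p = 0.528), and -0.27 (SE 0.066, edgeR adjusted p = 0.0168) with it, with 6.25% of all genes called under the block. By cluster the KO value of Efnb3 was negative in 23 of 28, with 0 at an unadjusted edgeR p under 0.05, and the Het value in 22 of 28. The KO value of Efnb1 was negative in 21 of 28. The clusters come from the same animals, so their signs are not independent. Efna5 was called in cluster 16 under the block (0.38, SE 0.085, edgeR adjusted p = 0.00581, 7.85% of genes called) and not without it (0.38, SE 0.115, edgeR adjusted p = 0.105). There it was 82.3, 87.5 and 71.5 CPM in WT, 96.3, 89.2 and 88.05 in Het and 125, 94.9 and 92.3 in KO. WT lay below both other genotypes, as in 9.53% of genes for Het, while Het and KO overlapped. By cluster the KO value of Efna5 was positive in 19 and negative in 10 of 29. Those at an unadjusted edgeR p under 0.05 without the block went both ways. Clusters 15, 16, 24 and 27 were higher in KO (0.43, 0.38, 0.35 and 0.38), and clusters 3, 7 and 25 lower (-0.28, -0.29 and -0.24).

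**Figure D5:**
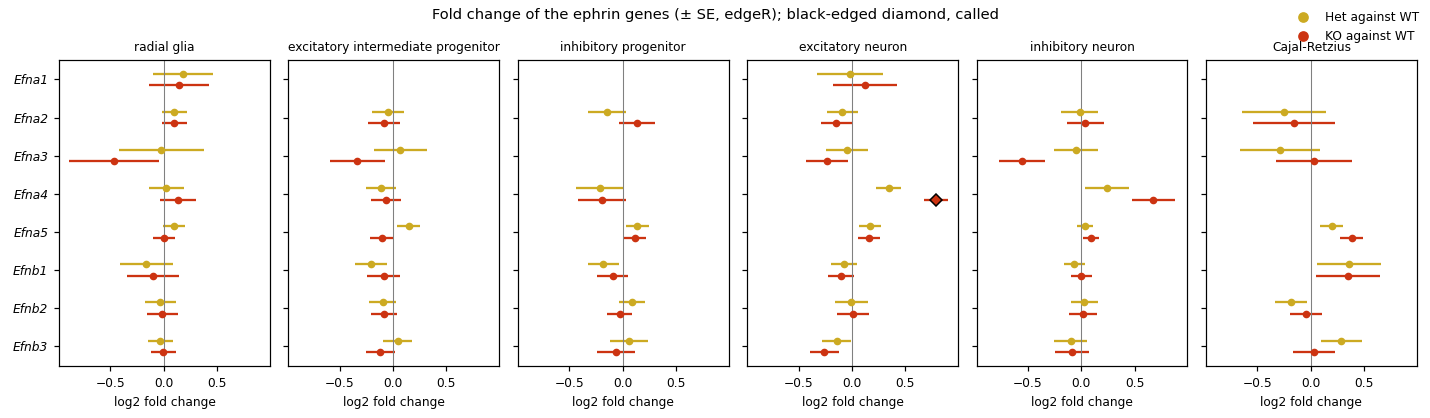
Log2 fold change ± SE (edgeR) of each ephrin gene for Het and KO against WT in the main classes, black-edged diamonds marking a call. The call is Efna4 in excitatory neuron-like nuclei of KO embryos at 0.79, and the median of the 8 members there is -0.05.

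In excitatory neuron-like nuclei the KO log2 fold changes of the 8 members ran from -0.26 to 0.79 with a median of -0.05, and the median of all genes tested was -0.01. In radial glia-like nuclei they ran from -0.47 to 0.14 and in inhibitory neuron-like nuclei, over 7 members tested, from -0.56 to 0.68.

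The receptors and partners of the ephrins were counted from lists of 14 Eph receptors and 22 effectors. In excitatory neuron-like nuclei of KO embryos 0 of 12 receptors tested and 0 of 22 effectors were called, with 1 and 6 at an unadjusted p under 0.05 in edgeR, against 2396 of all 18376 genes, and medians of 0.03 and 0.02. The receptor with the low p was Ephb4, a receptor of ephrin-B2, at 0.61 (SE 0.187, edgeR adjusted p = 0.159). With the replicate block Ephb4 and Rgs3, a regulator of G protein signalling that binds the ephrin-B tail, were called, where 6.25% of all genes were. Among clusters, Ephb1 and Rgs3 were higher in KO in cluster 15 (2.19% of genes called), 1 of 9 receptors and 1 of 20 effectors tested there, and Epha6 and Epha7 lower in cluster 16 (2.49% of genes called), 2 of 9 receptors. Epha3, a receptor of ephrin-A5, was at 3545 CPM in excitatory intermediate progenitor-like nuclei and 607 in inhibitory neuron-like nuclei, whereas Efna5 was lower in the first class than in the second. This is 1 of the 14 receptors and 1 pair of classes, given as an example. It leaves out excitatory neuron-like nuclei, where Efna5 was at 77.3 CPM, and an opposite order of receptor and ligand was not tested.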

How the data were processed

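The authors dissociated frozen E14 forebrains, fixed nuclei and made libraries with the Scale Biosciences single cell RNA kit, and aligned to mm10 with the maker's pipeline. The submitters' processing notes name Seurat 4.3.0, Scanpy 1.12.0 and DESeq2 1.38.3. The values deposited by the authors are treated as estimated counts, UMIs per gene and nucleus from that pipeline, since 6.70 to 8.71% of entries were not whole. Library totals were 25300676 to 93334845 UMIs. The members and all gene lists were chosen with earlier results of these data known.

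Barcodes had to lie between 800 and 6000 UMIs and between 300 and 3000 genes, with no more than 1% of UMIs mitochondrial, which left 200811. Putative doublets were taken as the 5% of barcodes with the highest Scrublet score in each library, not by Scrublet's own threshold. The share above that threshold ran from 0.0114% (Het replicate 3, run 2) to 17.56% (KO replicate 1, run 2). Where it exceeded 5%, the fixed cut by itself left some of these barcodes in. Clustering (scanpy 1.11.5) used 3000 variable genes without ephrin and Eph receptor genes, 50 components and the Leiden method at resolution 1. Class names came from marker lists. A cluster stayed unnamed with under 3 markers of its class, or with more leading genes from the list of another class. Cluster 21 stayed unnamed for weak markers, a rule set after the data were seen. The unnamed clusters 7 and 20 scored highest as excitatory neurons by markers, cluster 4 as inhibitory progenitors and cluster 17 as radial glia. None of them is part of the class it scored for. Cell types may therefore differ from the study's. Counts were summed per animal and class, with at least 20 nuclei in each animal, rounded, filtered with filterByExpr and tested with edgeR 4.0.16 (R 4.3.3, TMM, genotype as the term). The p-values measure the spread between animals. SE was taken from the log2 fold change and the F statistic. Alternatives were DESeq2 1.42.0, RLE factors, no low-count filter, 6 animals only, single runs, other nucleus filters, leaving out each animal and the replicate block. The scripts were tested on simulated data.

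Replicate numbers are in the titles. The study's methods say that the E14 embryos came from 3 litters and were mostly littermates, and neither they nor the labels tie a number to a litter or day. Residuals from the genotype mean correlated between animals of the same number at 0.101 to 0.261 in excitatory neuron-like nuclei. The values were 0.124 to 0.302 in inhibitory neuron-like and 0.135 to 0.357 in radial glia-like nuclei (9 pairs each). Animals with different numbers correlated at -0.264 to 0.0812 (18 pairs each). Centring within a genotype makes positive values of the first kind lower the second, so these are no separate evidence. In excitatory neuron-like nuclei the values were 0.214 to 0.261 for number 1 and 0.101 to 0.142 for number 3. The numbers were taken to pair the animals. That pairing comes from the data, and the calls made with the block rest on it.

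All 8 members are named, with a fold change by class where called or at an unadjusted p under 0.05. For clusters it is given where called, with further cluster values of Efna2 and Efna5 beside them. The genes most like a member are the 3 with the highest Pearson's r among genes reaching 20 CPM in a cluster. Promoters are RefSeq windows on GRCm38.p6 and gene positions are from GENCODE vM21.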

Additional observations from a re-analysis of the deposited data

Results flagged for a closer look

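The KO change of Efna4 differed between excitatory neuron-like and excitatory intermediate progenitor-like nuclei, by 0.86 on the log2 scale (SE 0.156, edgeR interaction test, adjusted p = 0.0117, 0.558% of genes called). The call was lost without WT replicate 2 (0.81, edgeR adjusted p = 0.0892) and from run 1 alone (0.33, edgeR adjusted p = 0.915). In the summed runs all 3 KO animals were above all 3 WT animals in the neurons. There KO and WT failed to overlap, in either direction, in 18.2% of all genes at 1 CPM or more. For Efna4 the genotypes overlapped in the progenitors, where KO and WT failed to overlap in 9.24% of all genes. By run the progenitors leaned opposite ways. KO was at 21.37 to 23.75 CPM and WT at 17.05 to 18.6 in run 1. In run 2 KO was at 15.95 to 21.66 CPM and WT at 21.24 to 25.96. The pair of classes was chosen after the values were seen.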

How the results depend on the processing

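The single call by class, Efna4 in excitatory neuron-like nuclei, stayed under DESeq2, RLE factors, no low-count filter, 6 animals only, both other nucleus filters, run 2 alone and leaving out each of 9 animals (1 to 1 calls, log2 fold change 0.70 to 0.89, edgeR adjusted p 0.00637 to 0.0379). From run 1 alone there were 0 calls over 5 classes. With the replicate block there were 2 calls by class and 6 by cluster, and beside the calls given with it above the block changed no other call of a member. In excitatory neuron-like nuclei it raised the calls over all genes from 218 to 1149. Het calls were 0 to 0 when each animal was left out. By cluster, calls were 0 to 1 when each animal was left out and 0 from run 1 alone (26 clusters). The Efna4 difference between excitatory and inhibitory neuron-like nuclei turned to -0.0063 without KO replicate 1 (range -0.0063 to 0.25). Between the levels of neighbouring classes, 24 of 56 pairs passed the test, 21 to 24 when an animal was left out and 12 of 23 from run 1 alone. By Spearman's rho, 11 of the 24 most similar genes were again among the top 3. Counting depth limits Efna1 in every class, Efna3 and Efna4 in inhibitory and Cajal-Retzius-like nuclei, and every member in the 2 smallest classes. Shared barcodes and free RNA were not removed, and their part in these values was not tested.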

Other observations

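Efnb1 and Efnb2 differed between the animals numbered 1 and the others, a split looked at after the values were seen. In radial glia-like nuclei Efnb1 was 155 ± 16.02 CPM in the 3 animals numbered 1, 1 of each genotype, and 255 ± 13.1 in the other 6, without overlap. Efnb2 was 155 ± 5.60 and 202 ± 4.67 CPM in the same animals. Each gene was lower without overlap in the animals numbered 1 in 4 of the 5 large classes. Excitatory neuron-like nuclei held 154 ± 5.44 against 207 ± 5.41 CPM of Efnb2 and 39.7 against 48.6 of Efnb1. Efna5 was lower in the animals numbered 1 in inhibitory progenitor-like nuclei, at 613 against 691 CPM, and higher in inhibitory neuron-like nuclei, at 561 against 510.3, without overlap in either. Efna2 was lower without overlap in 3 of the 5 classes, as in inhibitory neuron-like nuclei at 20.5 against 27.5 CPM. Efna3 was lower without overlap in excitatory neuron-like nuclei, at 9.91 against 14.7 CPM. Over all genes at 1 CPM or more, the animals numbered 1 stood apart from the other 6 in 11.9% of genes in radial glia-like nuclei (3 of 8 members), 9.09% in excitatory neuron-like (3 of 8), 11.7% in inhibitory neuron-like (3 of 7), 6.99% in inhibitory progenitor-like (2 of 6) and 7.87% in excitatory intermediate progenitor-like nuclei (3 of 7). Myt1l in radial glia-like nuclei was 81.0 CPM in the animals numbered 1 and 41.8 in the others. In each genotype and run the library numbered 1 also had the largest share of barcodes above Scrublet's own doublet threshold. It was 16.73% in run 1 and 17.56% in run 2 for KO, and 8.07% and 5.72% for WT. What the number stands for is not given in the labels, and a doublet, litter, dissection or handling difference was not tested.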
